A study of Mus musculus with 5 samples.

Results

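The insulin-like growth factor (IGF) system of cultured cardiac fibroblasts (CF) was examined through 10 genes: the ligands *Igf1* and *Igf2*, the receptors *Igf1r* and *Igf2r*, and the binding proteins *Igfbp2*, *Igfbp3*, *Igfbp4*, *Igfbp5*, *Igfbp6* and *Igfbp7*. They were found by gene name, with no measured value in the rule, and they are 10 of the 20365 gene names in the count tables. The CF came from hearts of adult, healthy, male C57Bl/6J wildtype mice and were grown to confluency. In the labeled group, 3 libraries were made from CF kept for 12 h with 0.1 mM 4-thiouridine (S4U), which stands in for uridine in newly made RNA. In the unlabeled group, 2 libraries came from CF kept in parallel without S4U, and the RNA of both groups was alkylated. The libraries came from 3 CF preparations, and which library came from which preparation is not given in the sources used here. Alkylated S4U is read as C in place of T, so that the T>C conversion rate, the number of conversions divided by the number of T positions covered by reads, rises with the share of a transcript made within the labeling time. The cells of both groups had been depleted of CD31+ and CD45+ cells, which are endothelial and immune cells, each sample was a pair of wells, and no transgene or disease model was involved.

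IGF1 and IGF2 are secreted peptides that act on the tyrosine kinase receptor IGF1R, which signals through insulin receptor substrates to PI3K and AKT. IGF2R carries no kinase activity and delivers IGF2 and mannose-6-phosphate tagged enzymes to lysosomes. The high-affinity binding proteins hold IGFs outside the cell and are cut by proteases that free the ligand, whereas IGFBP7 binds IGFs only weakly. In the heart, fibroblasts are a known local source of IGF1, which acts on cardiomyocyte growth and survival.

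Reads were taken from the 3′ end of transcripts, and the interval counted for every member lay in its last exon. The interval of *Igf1* covers 6347 bases (GRCm39, chr10:87766563-87772909, plus strand), begins in sequence that is coding in another annotated transcript and ends 5 bases past the annotated gene end. That of *Igf1r* covers 7266 bases of 3′ UTR (chr7:67876150-67883415, plus strand), and that of *Igf2r* covers 1304 bases (chr17:12901293-12902596, minus strand). Among binding proteins, the intervals of *Igfbp5* (4312 bases, chr1:72897224-72901535, minus strand), *Igfbp3* (1421 bases, chr11:7156086-7157506, minus strand) and *Igfbp4* (1076 bases, chr11:98942406-98943481, plus strand) are longer than those of *Igfbp2* (312 bases, chr1:72891322-72891633, plus strand), *Igfbp7* (240 bases, chr5:77497087-77497326, minus strand) and *Igfbp6* (210 bases, chr15:102057738-102057947, plus strand). The *Igf2* interval (3048 bases, chr7:142204505-142207552, minus strand) shares its strand with the annotated gene *Gm49394*, so its few reads cannot be given to *Igf2* alone. Genes on the other strand overlap the intervals of *Igf2* (*Gm33148*), *Igf1r* (*Pgpep1l*), *Igfbp3* (*Gm73927*) and *Igfbp7* (*Polr2b*), and use of strand in counting is not given in the sources used here.

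The windows of 30 bases below show the counted transcript ends of the members with enough reads for a precise rate. They are on the transcript strand, 5′ to 3′, read from the GRCm39 genome, with the polyadenylation hexamer in capitals (AATAAA, or its variant ATTAAA in *Igf1*).
Igf1 (chr10:87772868-87772897, plus strand): tttagtaattacATTAAAattaatcatgtt
Igf1r (chr7:67883384-67883413, plus strand): tggattaagttaAATAAAagaattctgtat
Igf2r (chr17:12901299-12901328, minus strand): gtattcaatttcAATAAAgataaattatta
Igfbp3 (chr11:7156096-7156125, minus strand): ttataaatagtaAATAAAgtttttatcatt
Igfbp5 (chr1:72897225-72897254, minus strand): tgtacttaaggaAATAAAaaagaaaaacct
Igfbp7 (chr5:77497095-77497124, minus strand): ttaaacaaaacaAATAAAattcttatcaca

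The hexamers were searched on the transcript strand in the last 50 bases of each interval. In these windows they end 13 bases (*Igfbp5*) to 24 bases (*Igf1*) before the interval end. *Igfbp4* has neither hexamer there, and among intervals of like length (within 25%) 63.7% hold AATAAA and 19.7% hold ATTAAA. The AU-rich element core ATTTA, searched on the same strand over the whole interval, occurs 18 times in *Igf1* and 13 times in *Igf1r*, where 99.6% of intervals of like length have at least 1 copy in both cases. It occurs 3 times in *Igf2r* and *Igfbp5*, 4 times in *Igfbp3*, 2 times in *Igfbp7* and once in *Igfbp4*. The longer AU-rich form TTATTTATT, which contains ATTTA, was found in no member, and 25.9% of intervals as long as that of *Igf1* have it. TGTANATA, the letters bound by Pumilio proteins, was found 2 times in *Igf1* (67.8% of intervals of like length have it) and once each in *Igf2r* (23.8%) and *Igfbp3* (26.0%).

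Counted reads, taken from 1 interval per gene, ranged from 506045 to 1576048 in the labeled libraries and were 1842863 and 996053 in the unlabeled libraries. The T>C rate over all intervals was 0.0353 to 0.0358 in labeled and 0.00111 and 0.000652 in unlabeled libraries. Fibroblast marker genes were read in all labeled libraries (12 of 12, summed to 42541 to 46221 CPM), with 34917 and 38201 CPM in unlabeled libraries. The marker sums of endothelial (121 to 223 CPM in labeled libraries) and immune cells (109 to 165 CPM) were low, and those of epicardial cells and cardiomyocytes lay between 1.63 and 10.04 CPM in all libraries. Every value below is from bulk cultures, in which fewer cells of a type and less RNA per cell cannot be told apart.

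Transcript levels are given as CPM, each gene's reads scaled to the reads counted on 1 interval per gene in that library. Since each transcript yields reads from its end only, levels were not divided by length. *Igf1* was the more abundant ligand by far. Its level was 742, 548 and 496 CPM in labeled replicates 1, 2 and 3, and 796 and 579 CPM in unlabeled replicates 1 and 2. Both groups overlapped, with the higher values in the libraries numbered 1. *Igf2* was read only 11, 6 and 5 times in the labeled and 9 and 4 times in the unlabeled libraries, which gave levels of 6.98, 5.02 and 9.88 CPM against 4.88 and 4.02 CPM. Every labeled level of *Igf2* thus exceeded both unlabeled levels, as was the case for 8.20% of all genes tested for reads, but *Igf2* did not pass the filter on low counts. Without that filter its log2 fold change was 0.68 (SE 0.65, edgeR, unadjusted p = 0.312, adjusted p = 0.927).

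The receptor *Igf1r* reached 175, 204 and 273 CPM in labeled and 195 and 287 CPM in unlabeled libraries. For *Igf2r* the values were 79.3, 124 and 150.2 CPM and 109.6 and 209.8 CPM, respectively. The groups overlapped for both receptors, and the libraries numbered 1 were the lowest of their group. In all 3 labeled libraries *Igf1r* was above *Igf2r*.

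The binding proteins spanned the range from the most to the least abundant members. *Igfbp7* was read at 4891, 5499.7 and 4199 CPM in labeled and at 3585 and 5072 CPM in unlabeled libraries. *Igfbp4*, which holds IGFs until it is cleaved by the protease PAPP-A, was at 1034, 2536 and 2929 CPM and at 1161 and 3182 CPM. Its low values were those of the libraries numbered 1 in both groups, so that the spread within a group far exceeded the difference between groups. *Igfbp3*, the main IGF carrier in blood, had the opposite order with 359.8, 132 and 128 CPM in labeled and 273 and 156 CPM in unlabeled libraries. *Igfbp5*, a matrix-associated binding protein, was at 313, 193 and 213 CPM in labeled and at 1030.5 and 747 CPM in unlabeled libraries. It was the only one of the 9 members that passed the filter on low counts whose groups did not overlap. Among all genes tested for reads, 13.1% were lower and 8.20% higher in every labeled library. *Igfbp2* (14.6, 9.21 and 19.8 CPM in labeled, 10.9 and 11.04 CPM in unlabeled libraries) and *Igfbp6*, which prefers IGF2 as a ligand (11.4, 23.4 and 3.95 CPM in labeled, 12.5 and 17.1 CPM in unlabeled libraries), rested on 2 to 28 reads per library.

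**Figure D1:**
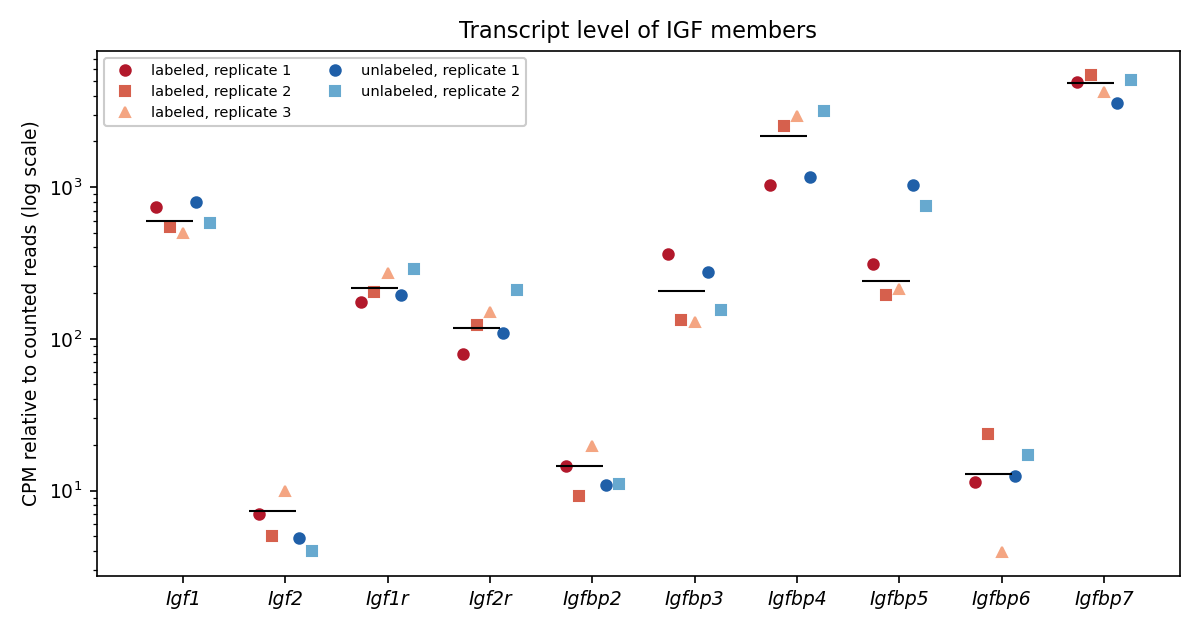
Transcript level (CPM relative to counted reads, log scale) of the 10 IGF genes in each library, with labeled libraries in red and unlabeled libraries in blue and the mean of the labeled libraries as a black line. *Igfbp7* and *Igfbp4* lie above all other members, *Igf2*, *Igfbp2* and *Igfbp6* lie below 25 CPM, and only *Igfbp5* shows a wide gap between the groups.

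Ordered by the mean of the labeled libraries (SD, n = 3), *Igfbp7* (4863 ± 651 CPM) led *Igfbp4* (2166 ± 1000.3 CPM) and *Igf1* (595 ± 129 CPM). A middle group followed with *Igfbp5* (239.8 ± 64.0 CPM), *Igf1r* (217 ± 50.1 CPM), *Igfbp3* (207 ± 132 CPM) and *Igf2r* (118 ± 35.8 CPM), in which no neighbours differed by more than the larger SD. The lowest group, *Igfbp2* (14.5 ± 5.28 CPM), *Igfbp6* (12.9 ± 9.83 CPM) and *Igf2* (7.29 ± 2.44 CPM), likewise had no neighbours that differed by more than the larger SD. Within it, *Igfbp2* was above *Igf2* in every labeled library. Between these steps the difference was larger than the spread, for example 8.11-fold from *Igf2r* to *Igfbp2*. The libraries numbered 1 and 2 differed in the same direction in both groups for 9 of 10 members, as for 80.0% of genes. In all, 38 of 45 pairs of members had labeled ranges that did not overlap. *Igfbp7* and *Igfbp4* together held 83.0% of the members' reads. Testing such an order between 3 and 3 values cannot give an exact p below 0.1, so none is given.

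The question of which members were made during labeling was addressed by the T>C rate. Of the 10 members, 7 had a higher rate in labeled than in unlabeled libraries (beta-binomial likelihood-ratio test, adjusted p below 0.05), against 94.5% of the 19240 intervals tested. In the same 7 members every labeled library exceeded both unlabeled libraries, which held for 90.4% of genes.

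Both receptors and *Igf1* were clearly labeled. *Igf1* had rates of 0.0409, 0.0398 and 0.0378 in labeled and 0.00105 and 0.000660 in unlabeled libraries (adjusted p = 4.86e-06). Its mean of 0.0395 ± 0.00158 (SD, 3 libraries) was close to the median of 0.0390 over 3156 intervals that had 1000 or more covered T positions in each library, termed deep intervals here. *Igf1r* had the highest rate of the members with 0.0415, 0.0475 and 0.0469 (mean 0.0453 ± 0.00332), higher than 90.7% of deep intervals (adjusted p = 1.09e-05). Its unlabeled rates of 0.00311 and 0.00425 were high as well, above those of 98.5% of deep intervals. With the unlabeled rate subtracted *Igf1r* came to 0.0416 and its lead over *Igf1*, 0.00298, was within the SD and held in 2 of 3 libraries. *Igf2r* had lower rates of 0.0272, 0.0321 and 0.0272 with 0.000296 in both unlabeled libraries (mean 0.0288 ± 0.00284, adjusted p = 1.13e-05), above 13.0% of deep intervals.

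Among the binding proteins, *Igfbp3* had rates of 0.0284, 0.0379 and 0.0367 in labeled and 0.00430 and 0.000886 in unlabeled libraries (mean 0.0344 ± 0.00521, adjusted p = 0.000206). *Igfbp5* had 0.0257, 0.0357 and 0.0357 against 0.000405 and 0.000536 (mean 0.0323 ± 0.00578, adjusted p = 4.13e-05). Labeled replicate 1 had the lowest rate of its group for both genes, and their ranges overlapped.

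Among the 7 members with deep intervals, the most abundant ones had the lowest rates. *Igfbp7* had 0.0161, 0.0161 and 0.0130 in labeled and 0.000557 and 0.000267 in unlabeled libraries (mean 0.0151 ± 0.00183, adjusted p = 1.99e-05). *Igfbp4* had 0.0121, 0.0166 and 0.0144 against 0.000317 and 0.000411 (mean 0.0144 ± 0.00228, adjusted p = 3.21e-05). These means exceeded those of only 4.21% and 3.80% of deep intervals, and the ranges of both genes lay below those of the other 5 members with deep intervals. The genes could not be ordered between themselves, since *Igfbp7* was above *Igfbp4* in 1 of 3 libraries.

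The rates of *Igfbp2*, *Igfbp6* and *Igf2* were not resolved at this depth. *Igfbp2* had 18 conversions at 1004 covered T positions over the labeled libraries (rate 0.0179, exact 95% binomial interval 0.0107 to 0.0282), of which 11 came from labeled replicate 2 and 0 from replicate 3. Its unlabeled libraries had 0 conversions at 697 positions, which allows a rate of up to 0.00430 (beta-binomial adjusted p = 0.0568), and without labeled replicate 3, which had 10 reads, *Igfbp2* passed the threshold (adjusted p = 0.00973). *Igfbp6* had 7 conversions at 732 positions (interval 0.00385 to 0.0196, adjusted p = 0.296), with 3 conversions at 630 positions in unlabeled libraries. *Igf2* had 1 conversion at 459 positions (interval 5.52e-05 to 0.0121, adjusted p = 0.377), and 0 of 223 in unlabeled libraries allows up to 0.0135. These intervals and limits cover counting error only.

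**Figure D2:**
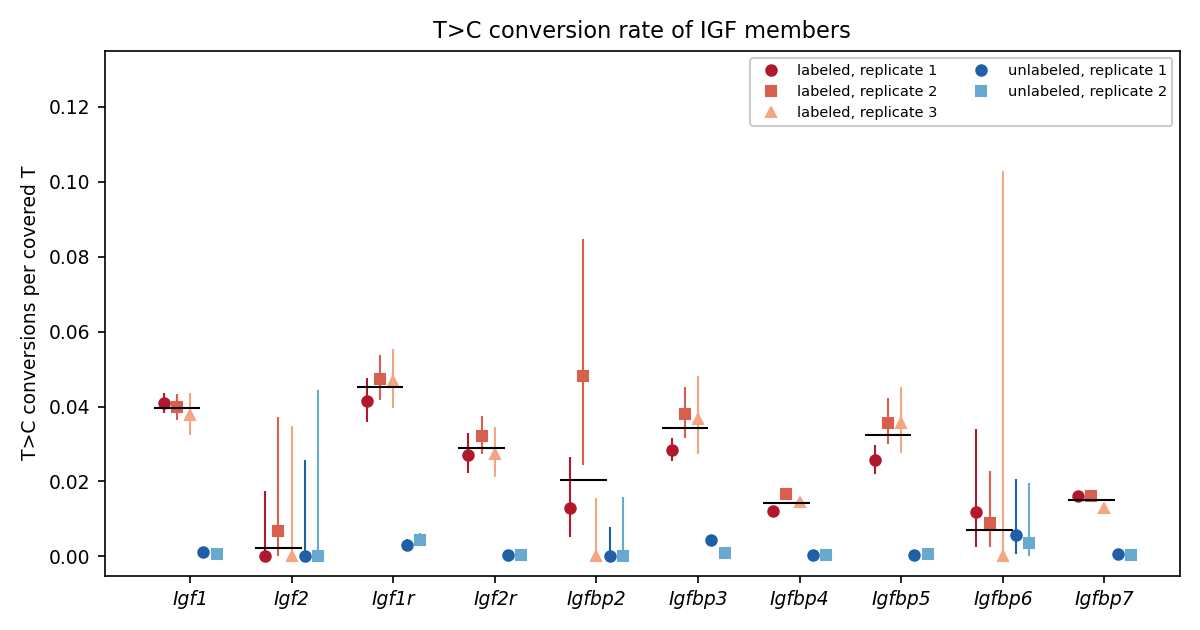
T>C conversions per covered T position of the 10 IGF genes in each library, with exact 95% binomial intervals and the mean of the labeled libraries as a black line. *Igf1r* and *Igf1* are highest, *Igfbp4* and *Igfbp7* are low with narrow intervals, and the intervals of *Igf2*, *Igfbp2* and *Igfbp6* are wide.

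Ranked by mean without subtraction, the rates fell from *Igf1r* over *Igf1*, *Igfbp3*, *Igfbp5* and *Igf2r* to *Igfbp7* and *Igfbp4*. Neighbours differed by more than the larger SD only between *Igf1r* and *Igf1* and between *Igf2r* and *Igfbp7*, where the step was 1.91-fold. The unlabeled rate of *Igfbp3* was above that of 95.2% of deep intervals, and with unlabeled rates subtracted *Igfbp5* (0.0319) and *Igfbp3* (0.0318) traded places within the SD, *Igf1* stood above both by more than the SD, and *Igf1r* no longer stood above *Igf1* by more than the SD. Of the 21 pairs among these 7 members, 16 had ranges that did not overlap. Their median rate was 0.0323, against 0.0388 over 2105 genes of the same depth.

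**Figure D3:**
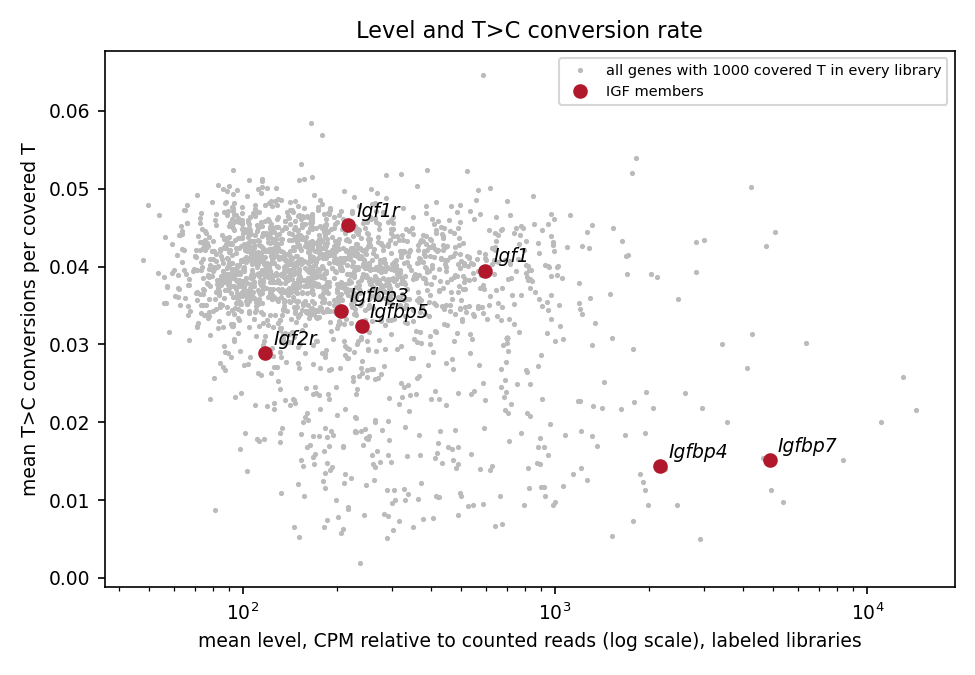
Mean T>C rate against mean level (CPM relative to counted reads, log scale) in the labeled libraries for 2105 genes with a deep interval (grey) and the 7 IGF genes among them (red). *Igfbp4* and *Igfbp7* lie at high level and low rate, near 0.015, while the other 5 members lie between 0.0288 and 0.0453.

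The tables also count reads with a T>C conversion for each interval. This count is kept apart from the conversions at covered T positions and can exceed them, as in *Igfbp5* of unlabeled replicate 1 with 12 such reads and 9 conversions. For *Igfbp7* they amounted to 946, 1073 and 692 CPM in labeled and 36.9 and 28.1 CPM in unlabeled libraries. Despite its low rate *Igfbp7* thus still gave the most converted reads of the members (mean 904 ± 194 CPM), followed by *Igfbp4* (499.7 ± 261 CPM) and *Igf1* (282 ± 53.3 CPM), which did not differ beyond the SD and kept that order in 2 of 3 libraries, and *Igfbp7* with *Igfbp4* held 68.1% of the members' converted reads. *Igf1* had 342, 266 and 239 CPM of converted reads in labeled and 16.3 and 8.03 CPM in unlabeled libraries. *Igf1r* (121 ± 39.1 CPM), *Igfbp3* (88.9 ± 49.5 CPM), *Igfbp5* (83.4 ± 10.7 CPM) and *Igf2r* (63.0 ± 19.8 CPM) followed, with overlapping ranges between neighbours.

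As a share of the gene's reads, converted reads made up 54.7 ± 5.84% in *Igf1r*, 53.4 ± 0.574% in *Igf2r*, 47.6 ± 1.32% in *Igf1*, 44.4 ± 3.77% in *Igfbp3*, 36.2 ± 9.28% in *Igfbp5*, 22.3 ± 3.10% in *Igfbp4* and 18.4 ± 1.71% in *Igfbp7* (mean and SD, 3 labeled libraries). In unlabeled libraries the share was 5.85% and 8.74% in *Igf1r*, 8.73% and 1.94% in *Igfbp3* and 0.554% to 2.04% in the other 5, with 0.990% and 0.957% in *Igf2r*. These shares were not subtracted, and *Igf1r* and *Igf2r* did not differ beyond the SD. A read of *Igf2r* covered 30.6 to 32.0 T positions in labeled libraries, against 17.2 to 20.8 in *Igf1r* and 13.0 to 17.1 in *Igfbp5*, and a read with more T positions has more chances to carry a conversion. The rate per T position does not depend on that number and is the measure used for the order above.

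**Figure D4:**
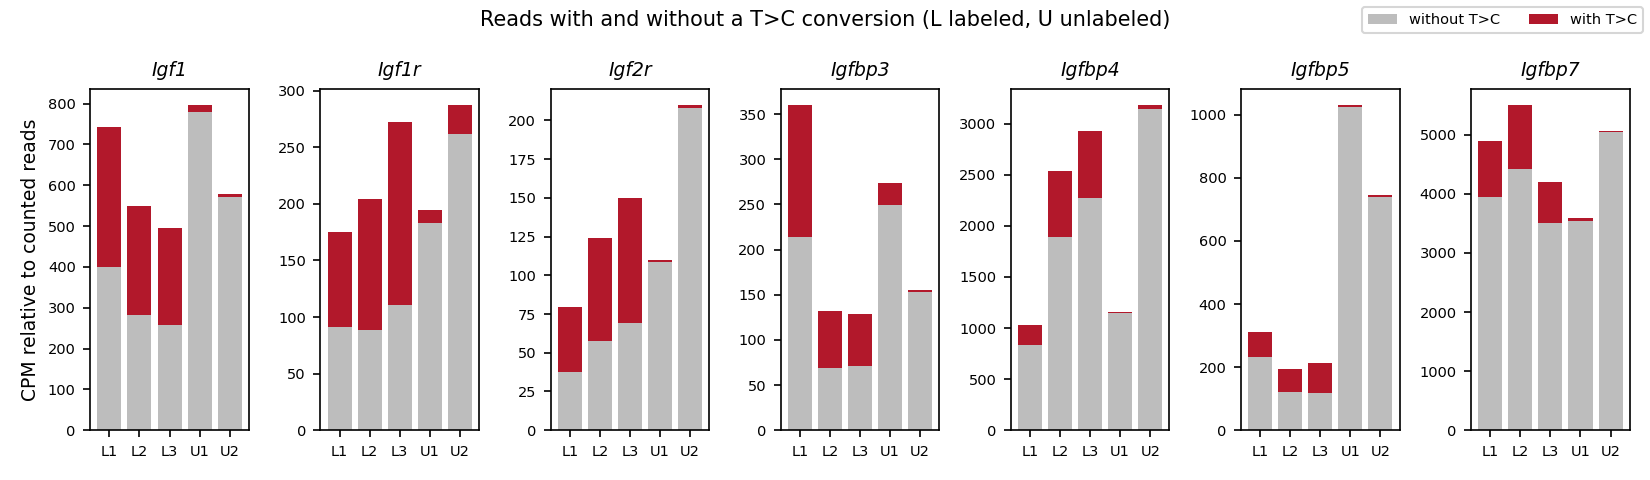
Reads with (red) and without (grey) a T>C conversion, in CPM relative to counted reads, for the 7 members with deep intervals in labeled (L1 to L3) and unlabeled (U1, U2) libraries, with a separate axis for each gene. Unlabeled bars are almost wholly grey, and the red part is larger in labeled libraries in all 7 members. The grey parts overlap between the groups in *Igfbp3*, *Igfbp4* and *Igfbp7*. The whole bars of *Igfbp5* are 193 to 313 CPM in labeled against 1030.5 and 747 CPM in unlabeled libraries.

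Finally, all reads were compared between the groups, which asks whether 12 h with S4U went along with another level of the members. By edgeR's quasi-likelihood test, 0 of the 9 members that passed the filter on low counts had an adjusted p below 0.05, and neither had any of the 9807 genes tested (0% in either direction). At an unadjusted p below 0.05 there was 1 member, *Igfbp5*, which was lower in labeled libraries, where 3.12% of genes were lower and 2.84% were higher. By DESeq2 *Igfbp5* passed the adjusted threshold as the only member, with 0.0714% of genes called lower and 0.133% called higher. With the replicate number as a block, edgeR called 2 members lower, *Igfbp5* and *Igf2r*, beside 6.29% of genes called lower and 5.38% called higher, where it is not stated whether equal numbers mark a shared preparation. That fit leaves 1 residual degree of freedom, so the spread of a single gene is hardly measured.

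*Igfbp5* had a log2 fold change of -1.81 (SE 0.29), which is 3.50-fold lower in labeled libraries (edgeR, unadjusted p = 0.0004, adjusted p = 0.434; DESeq2, adjusted p = 0.000981). Its 3 labeled libraries lay below both unlabeled libraries, as for 13.1% of genes, while a fold change as low as that of *Igfbp5* was fitted for 16 of 9807 genes (0.163%). Leaving out each library in turn gave log2 fold changes from -2.03 to -1.61 by edgeR. Reads without a conversion were 231, 119.7 and 119 CPM in labeled and 1024 and 741 CPM in unlabeled libraries, a 5.64-fold difference of the means. Labeling itself moves reads out of this class, and in the other 6 members with deep intervals the means differed 1.08-fold (*Igfbp7*) to 2.89-fold (*Igf2r*). Reads with a conversion were 81.9, 73.6 and 94.9 CPM in labeled and 6.51 and 6.02 CPM in unlabeled libraries. Some marker sums and marker genes moved along with this difference. Of all genes tested for reads, 13.1% were lower and 8.20% higher in every labeled library. The endothelial sum overlapped between the groups (121, 223 and 124 CPM against 171 and 244 CPM). However, *Cdh5* (46.3, 51.0 and 31.6 CPM against 55.9 and 52.2 CPM) was lower in every labeled library. So were *Emcn* (19.0, 18.4 and 11.9 CPM against 25.5 and 24.1 CPM) and *Cldn5* (5.08, 5.02 and 3.95 CPM against 9.22 and 7.03 CPM). *Cldn5* rested on 2 to 17 reads per library. The other endothelial markers read in labeled libraries overlapped. The immune sum overlapped as well (109, 165 and 113 CPM against 110 and 179 CPM). Of the immune markers, *Adgre1* was lower in every labeled library (6.98, 5.86 and 1.98 CPM against 7.60 and 14.1 CPM), on 1 to 14 reads. The other immune markers overlapped. The summed fibroblast markers were higher in every labeled library. So was *Col1a1* (13293, 12755 and 13058 CPM against 8785 and 9660 CPM), which made up 29.8% of that sum in labeled libraries. The fibroblast markers *Pdgfra* (525, 524 and 516 CPM against 722 and 841 CPM) and *Ddr2* (277, 332 and 245 CPM against 382 and 453 CPM) were lower in every labeled library. All other fibroblast markers overlapped between the groups. The mural markers summed to 1034 to 2431 CPM against 533 and 971 CPM. Of the 8 mural genes *Acta2* and *Tagln*, which activated fibroblasts also express, made up most of that sum. *Acta2* overlapped between the groups (539, 1411 and 1618 CPM against 353 and 740 CPM). *Tagln* was higher in every labeled library (468, 517 and 777 CPM against 164 and 211 CPM). *Cnn1* (14.6, 10.9 and 19.8 CPM against 5.97 and 6.02 CPM) and *Cspg4* (4.44, 3.35 and 5.93 CPM against 1.09 and 1.00 CPM) were also higher in every labeled library, *Rgs5* and *Kcnj8* overlapped between the groups, *Abcc9* (2.54, 1.67 and 1.98 CPM against 3.26 and 11.04 CPM) was lower in every labeled library, and *Myh11* was read in no labeled library. *Cspg4* rested on 1 to 7 and *Abcc9* on 1 to 11 reads per library. The epicardial sum was 3.81 to 7.90 CPM against 1.63 and 3.01 CPM with *Msln* and *Krt19* at 0 in all libraries. *Wt1* made up most of it in labeled libraries (3.81, 4.18 and 5.93 CPM) but not in unlabeled libraries (0.543 and 1.00 CPM), on 1 to 6 reads per library. The part of these cells or states in the *Igfbp5* result was not tested.

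For the other 8 members tested the difference was smaller than its SE by edgeR without the replicate block. That SE was derived from the fold change and its F statistic, so this restates the test. The log2 fold change was -0.13 (SE 0.27) for *Igf1*, -0.079 (SE 0.33) for *Igf1r* and -0.38 (SE 0.42) for *Igf2r*. Among binding proteins it was 0.43 (SE 0.48) for *Igfbp2*, 0.031 (SE 0.49) for *Igfbp3*, 0.063 (SE 0.58) for *Igfbp4*, -0.016 (SE 0.64) for *Igfbp6* and 0.23 (SE 0.28) for *Igfbp7*. Of the 9 members, 4 had a higher and 5 a lower fitted level in labeled libraries, with a median of -0.016 against 0.018 over all genes tested. The SEs ranged from 0.27 (*Igf1*) to 0.64 (*Igfbp6*), and an unchanged level was not shown for any of them.

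**Figure D5:**
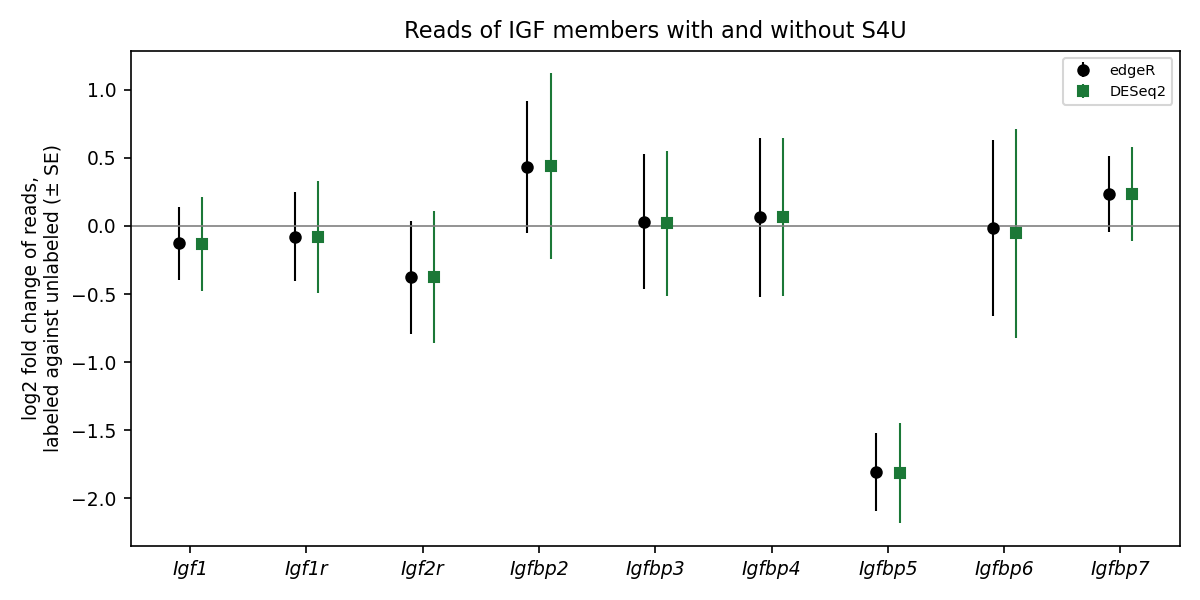
Log2 fold change of reads in labeled against unlabeled libraries for the 9 members tested, with SE, by edgeR (black) and DESeq2 (green). The SE is derived from the F statistic for edgeR and fitted for DESeq2. *Igfbp5* lies at -1.81 by both tools, and the error bars of the other 8 members cross 0.

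The other genes of IGF signaling were taken from a list of 45 that covers further ligands and carriers, proteases and their inhibitors, insulin receptors, adaptors, the PI3K and AKT branch and IGF2 mRNA-binding proteins. A T>C rate could be tested for 37 of them, and 36 were higher in labeled libraries and 0 lower, against 94.5% higher among all intervals. In the 10 with deep intervals the median rate was 0.0383, and 5 lay above the median of genes of that depth. The highest rates were those of *Rheb*, the GTPase that activates mTORC1 (0.0470 ± 0.00421), the adaptors *Grb10* (0.0396 ± 0.00191) and *Shc1* (0.0391 ± 0.00844), the AKT target *Gsk3b* (0.0390 ± 0.00280) and the PI3K subunit *Pik3r1* (0.0389 ± 0.00658). The lowest was that of *Htra1*, a secreted protease that cleaves IGFBPs, with 0.00746 ± 0.000673 and an unlabeled rate of 0.00352, followed by *Grb2* (0.0345 ± 0.00222) and *Akt1* (0.0375 ± 0.00318). *Htra1* thus lay below *Igfbp4* and *Igfbp7*.

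By level, *Gsk3b* (356 ± 66.0 CPM), *Rheb* (282 ± 81.4 CPM), *Pik3ca* (256 ± 64.1 CPM) and *Grb10* (206 ± 3.51 CPM) were the most abundant genes of the list with deep intervals, all below the level of *Igf1*. For *Igfals*, *Ins1*, *Ins2*, *Insrr* and *Irs4* no read was counted in any labeled library. In the comparison of reads, 0 of 34 genes of the list passed by edgeR and 0 by DESeq2, against 0% of all genes by edgeR and 0.0714% lower and 0.133% higher by DESeq2. With the replicate number as a block edgeR called 4 of them (*Grb10*, *Stc1*, *Grb14* and *Shc1*), beside 6.29% of all genes lower and 5.38% higher. The same limit of 1 residual degree of freedom holds there. An unadjusted p below 0.05 was reached by *Stc1*, an inhibitor of PAPP-A (log2 fold change -1.66), and the adaptor *Grb14* (-1.24), both named after their values were seen, which makes 2 of 34 genes lower beside 3.12% of all genes lower and 2.84% higher. The median of the list was -0.030.

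For each member with at least 50 reads in every library, the gene with the most similar profile over the 5 libraries was sought among 2008 genes by the root mean square difference of centred log2 CPM. These were *Zyg11b* for *Igf1* (0.0433), *Irf2bpl* for *Igf1r* (0.0273), *Tspan9* for *Igf2r* (0.0788), *Samd4b* for *Igfbp3* (0.0613), *Bub3* for *Igfbp4* (0.0497) and *Hspa13* for *Igfbp7* (0.0524). The profile of *Igfbp5* had the least close match, *Fgl2* (0.214), with 257, 196 and 227 CPM in labeled and 739.6 and 601 CPM in unlabeled libraries. Profiles over so few libraries are alike for many genes, and library number and group are shared by all of them.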

How the data were processed

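The IGF genes and the gene lists were chosen with earlier results of these data known. SLAMseq libraries (QuantSeq 3′ mRNA-Seq FWD with UMIs) were processed by the authors with SLAM-DUNK 0.4.3 on mm39. The deposited tables hold, per UTR interval, read counts, counts of covered T positions and T>C conversions, the conversion rate as a fraction, and CPM. The totals behind the deposited CPM are 7.58 to 28.9 times the reads counted here, depending on the library, so levels were recomputed from the deposited counts. Repeated entries were dropped, leaving 40428 distinct intervals, and the interval with the highest mean deposited CPM in labeled libraries stood for each gene.

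Rates were tested with a beta-binomial model (likelihood ratio, overdispersion shared by all libraries of an interval), and reads with edgeR 4.0.16 (TMM, filterByExpr, quasi-likelihood), both two-sided with Benjamini-Hochberg adjustment over all intervals or genes and a threshold of 0.05. DESeq2 1.42.0, limma 3.58.1 on log odds (pseudocount 0.5), other normalizations, filters, intervals, a replicate block and leaving out each library were alternatives. The SE given for edgeR is the absolute log2 fold change divided by the square root of the F statistic. CPM for profiles was log2-transformed with a pseudocount of 1. Outside the replicate block, the p-values measure the spread between these libraries, for which no separate animals are named per library. An exact permutation test of 3 against 2 libraries cannot go below p = 0.1, so none was used.

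All 10 members were named. Of the other pathway genes, those passing the read test or else the 5 highest and 3 lowest rates and the 4 highest levels at deep coverage were named, and for each member with enough reads the 1 gene nearest in profile. Motifs and windows were read from GRCm39, whose T content equals that in the tables for all intervals compared. On simulated data the beta-binomial test found 170 of 200 changed among 3000 intervals with 2 false calls, and edgeR 122 of 192 genes changed by a log2 of 2 among 9517 with 5 false calls. For the same genes DESeq2 found 125 with 12 false calls and edgeR with the replicate block 102 with 4. Of the unchanged intervals, 6.18% had an unadjusted beta-binomial p below 0.05. Most simulated intervals were unchanged, whereas 94.5% of real intervals were called, and libraries were simulated as independent. These counts thus do not give the error of the real calls or of the block.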

Additional observations from a re-analysis of the deposited data

How the results depend on the processing

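The 7 labeled members were called under every alternative to the T>C test, with 8 called by limma on log odds, which added *Igfbp6* (adjusted p = 0.0435), and 7 or 8 without 1 library, where *Igfbp2* was added without labeled replicate 3. In labeled replicate 3 *Igfbp6* had 2 reads and 0 conversions at 34 covered T positions. Its log odds there come from the pseudocount, so that call does not show labeling of *Igfbp6*. Among all intervals 18175 were called, 3154 where at least 1000 covered T positions were required, 10693 after summing the intervals of a gene and 16920 to 18549 without 1 library. Among other pathway genes the call count went from 36 to 10 at that coverage, where only 10 were tested, and was 35 to 37 without 1 library. Of 50 T>C rates recomputed for members, 1 moved by more than its SD. Of 50 levels 16 moved, 10 of them on the deposited CPM scale, in which libraries are divided by other totals, and 6 on summing the intervals of a gene. The intervals of *Igf1*, of *Igf1r* and of *Igf2* overlap within each gene, so their sums count the same reads more than once. In labeled replicate 1, for example, both *Igf1r* intervals hold 276 reads. *Igf2r* (118 to 81.0 CPM), *Igfbp5* (239.8 to 164 CPM) and *Igfbp7* (4863 to 3335 CPM) have 1 interval each. Their own reads stayed the same, and only the total to which they were scaled differed. Those 6 values thus say nothing about the level.

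For reads, edgeR called 0 members, 0 pathway genes and 0 of all genes, also without each library in turn. DESeq2 called 20 genes (13 higher, 7 lower) with 1 member, *Igfbp5*, and gave no adjusted p for *Igfbp2* and *Igfbp6*. Why the tools differed was not tested. Leaving out 1 library turned the sign of the log2 fold change in *Igf1* (-0.30 to 0.064), *Igf1r* (-0.38 to 0.28), *Igf2r* (-0.81 to 0.22), *Igfbp3* (-0.62 to 0.44), *Igfbp4* (-0.52 to 1.04), *Igfbp6* (-0.71 to 0.32) and *Igfbp7* (-0.035 to 0.56), and upper quartile scaling turned *Igfbp6* to 0.0059, none of them called. The direction in these members is thus unresolved.

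Replicate numbers 1 and 2 occur in both groups. The 5 libraries came from 3 CF preparations, with unlabeled cells kept in parallel, so some of them share a preparation. It is not stated that equal numbers do. The numbers were not used for pairing in the main read test, which treated the libraries as separate. Deviations from the group mean correlated at 0.784 and 0.638 for same-numbered libraries and at 0.482 for labeled 3 with unlabeled 2. With 2 unlabeled libraries the values against the other one are the same with the sign turned (-0.784, -0.638 and -0.482), so they do not settle the pairing. With the replicate number as a block, which leaves 1 residual degree of freedom, edgeR called 1145 genes (528 higher, 617 lower). Among them were 2 members, *Igfbp5* (log2 fold change -1.77) and *Igf2r* (-0.57), and 4 pathway genes (*Grb10*, *Stc1*, *Grb14* and *Shc1*). The SEs under the block were nearly alike in *Igf1* (0.150), *Igfbp4* (0.150) and *Igfbp7* (0.151). Such p-values hardly measure the spread of a single gene and are not given. *Igfbp4* (-0.20) and *Igfbp6* (0.22) changed sign under the block without being called. Depth limits *Igf2*, *Igfbp2* and *Igfbp6*, which had 2 to 28 reads per library.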
